A study of Nomascus leucogenys with 9 samples.

Results

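The genes described here are 10 surface molecules through which activated B cells adhere to and costimulate T cells: CD80, CD86, CD83, ICAM1, ICAM3, ITGAL, ITGB2, CD58, CD48 and CD44. They were chosen by name, not by their values, and were found through their human Ensembl identifiers, which are the row names of the deposited expression table. Of the 10, 9 had a row among the 15356 rows of the table, and all 9 passed a filter on low values that left 12590 rows. CD48 (ENSG00000117091) had no row and was not analysed here. The RNA came from cultured lymphocytes that Epstein-Barr virus (EBV) had transformed into lymphoblastoid lines, a B cell culture that grows without limit, from 9 northern white-cheeked gibbons (Nomascus leucogenys), with 1 line and 1 library for each animal. The labels give no treatment, no ages and no contrast between animals, so all 9 lines form 1 group, and the comparisons are among the lines and among the genes. The study concerned LAVA, a retrotransposon of gibbons, which was not analysed here. In label order Asia was line 1, Bobby line 2, China line 3, Khao line 4, Melouprey line 5, Nancy line 6, Phyllis line 7, Ricky line 8 and Vok line 9.

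A T cell responds fully to antigen only when its receptor signal is joined by a second, costimulatory signal, which CD80 and CD86 on the presenting cell deliver through CD28 and which CTLA4 restrains. The contact between the cells is held by adhesion pairs. The integrin LFA-1, built from the alpha chain ITGAL and the beta chain ITGB2, binds ICAM1 and ICAM3, and CD58 binds CD2 on the T cell. In human B cells the EBV membrane protein LMP1 signals through NF-kB and is known to raise ICAM1 and CD58. Viral transcripts were not analysed here.

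Values are deposited log2 expression, already scaled between libraries by the authors, and a difference of 1 is a doubling. Levels are also given in parts per 1000000 (ppm) of each line's summed linear values. Transcript lengths were not used here, so levels are compared between lines for 1 gene and not between genes. Each line was measured once, so the error of a single line's value is unknown and the order of neighbouring lines is not established. In bulk RNA, fewer cells of a type and less RNA per cell cannot be told apart. The table gives no depths, and animal, culture and transformation event coincide in each line. CD80, CD83 and CD86, which resting B cells express weakly, had rows above the filter in every line; B cell identity genes could not be matched by symbol and were not analysed here.

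All 9 genes were measured well above the filter of 1 ppm in every line, and some differed more widely between lines than others. The integrin alpha chain ITGAL, the activation marker CD83 and the costimulatory ligands CD86 and CD80 each spanned at least 2-fold from the lowest to the highest line. These are 4 of 9 genes, against 26.4% of all rows that passed the filter, and without lines 1 and 6 the count was 2, CD83 and ITGAL. A span of 4-fold was reached by 0 of 9, against 6.18% of all rows, although ITGAL, at 3.98-fold, lay just under it. ITGB2, ICAM1, CD44, CD58 and ICAM3 spanned between 1.64-fold and 1.88-fold.

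**Figure D1:**
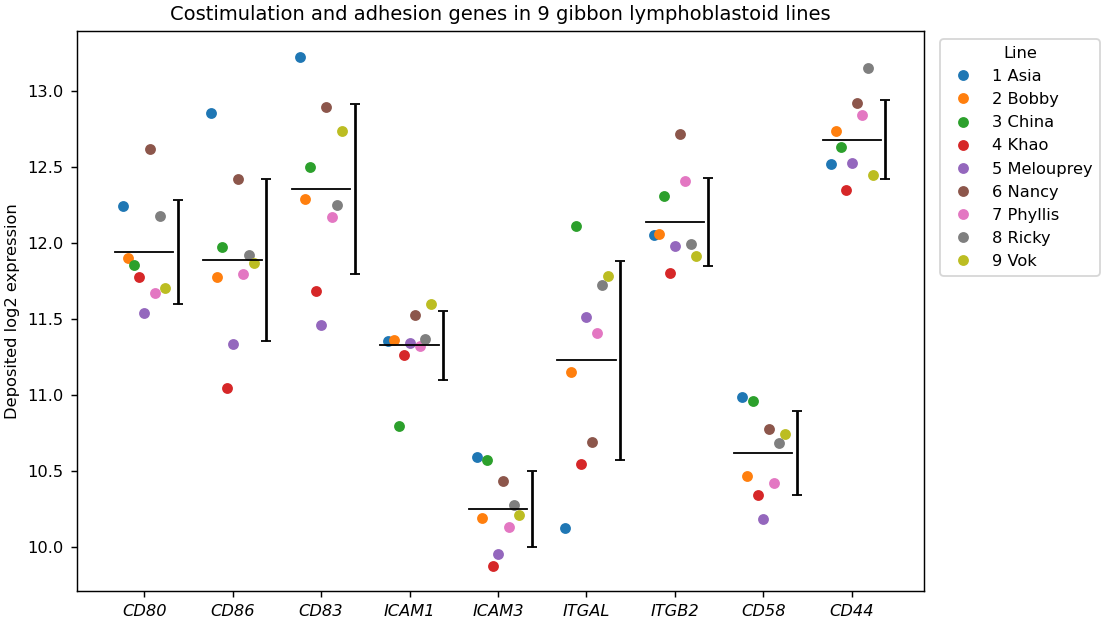
Deposited log2 expression (vertical axis) of the 9 genes with a row, 1 point for each of the 9 lines, coloured by line; horizontal bars are means and error bars are SD (n = 9). ITGAL, CD83 and CD86 have the widest spread (SD 0.66, 0.56 and 0.53), and ICAM1 is nearly level except for line 3 at 10.79.

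CD80 and CD86 are the ligands of CD28 and CTLA4. The level of CD80 (ENSG00000121594) was lowest in line 5, at 11.54 log2 units, had a median of 11.85 and was highest in line 6, at 12.62 (mean 11.94 ± 0.34, SD, n = 9, or 289.7 ± 74.3 ppm). Line 6 stood 0.38 above the next line, line 1, and the other 7 lines lay below both. CD86 (ENSG00000114013) ran from 11.04 in line 4, through a median of 11.87, to 12.85 in line 1 (mean 11.89 ± 0.53, SD, n = 9, or 289.1 ± 113.1 ppm), a 3.51-fold span. Lines 1 and 6 were separated from the other 7 lines by a gap of 0.45, and lines 4 and 5 were the lowest. Among the 1000 rows nearest to CD86 in mean level, 96.4% had a smaller SD, against 85.2% for CD80.

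The balance between these ligands differed from line to line. The difference CD80 minus CD86 within a line was lowest in line 1, at -0.61 log2 units, and highest in line 4, at 0.73 (mean 0.055 ± 0.37, SD, n = 9). That is a 2.54-fold change in the ratio of the ligands across the lines. In line 1 both ligands were above their medians, with CD86 raised by 0.99 and CD80 by 0.39. In line 4 both were below, with CD86 at -0.82 and CD80 at -0.08 from the median.

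CD83 (ENSG00000112149) is an immunoglobulin-family protein that appears on dendritic cells and B cells on activation. Its level was 11.46 log2 units in line 5, 12.29 at the median and 13.23 in line 1 (mean 12.36 ± 0.56, SD, n = 9, or 401.9 ± 153.5 ppm), a 3.40-fold span. Lines 4 and 5 lay below the other 7 by a gap of 0.49. Of the 1000 rows nearest in level, 97.3% had a smaller SD. Lines 1 and 6 were the 2 highest lines for CD83, CD86 and CD80 alike, with line 6 ahead of line 1 for CD80.

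**Figure D2:**
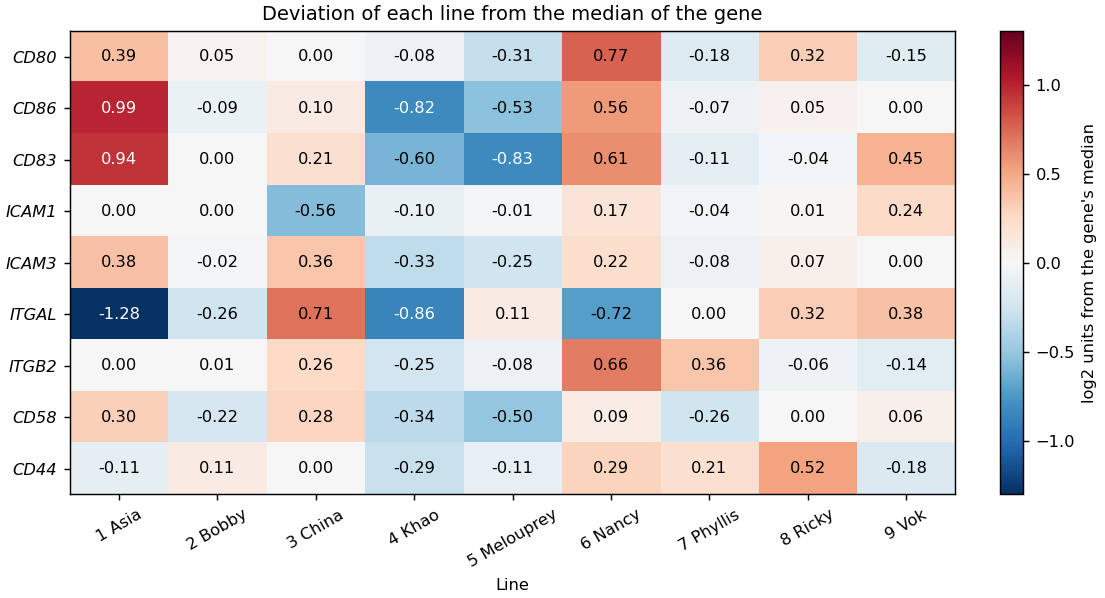
Deviation of each line (columns) from the median of each gene over the lines (rows), in log2 units, with red above and blue below the median. Line 4 was below the median for 9 of 9 genes and line 6 above it for 8, and in line 1 CD86 (0.99) and CD83 (0.94) were raised while ITGAL was at -1.28. The shares of all rows below or above their medians in lines 4 and 6 were not calculated.

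ICAM1 and ICAM3 are ligands of LFA-1, and in the gibbon RefSeq assembly they lie on the same chromosome with 5 genes between them, among these ICAM4 and ICAM5. ICAM1 (ENSG00000090339) varied little apart from 1 line. In line 3 it was at 10.79 log2 units, the median was 11.36 and the highest value was 11.60 in line 9 (mean 11.33 ± 0.23, SD, n = 9, or 186.1 ± 27.1 ppm). The 8 lines other than line 3 spanned 0.34. The gap of 0.47 below those 8 lines passed Dixon's gap criterion, making ICAM1 the 1 of 9 genes with an outlying line, against 10.1% of all rows (3.57% with the outlying line on the low side).

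ICAM3 (ENSG00000076662) was lowest in line 4, at 9.88, had a median of 10.21 and was highest in line 1, at 10.59 (mean 10.25 ± 0.25, SD, n = 9, or 88.4 ± 15.2 ppm). Its values were graded, and line 3, the low line for ICAM1, was at 10.57, the second highest for ICAM3. Over the 9 lines ICAM1 and ICAM3 gave r = -0.26 (exact permutation p = 0.534) and rho = 0.23 (exact permutation p = 0.552). Without lines 3 and 9, the farthest from the ICAM1 median, r was 0.63 (exact permutation p = 0.124, n = 7), and without line 3 alone it was 0.42, so the sign of r rested on line 3.

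ITGAL and ITGB2 are the subunits of LFA-1, and ITGB2 is also the beta chain of other leukocyte integrins. ITGAL (ENSG00000005844) had the widest range of the 9 genes. It was lowest in line 1, at 10.12 log2 units, stood at 10.55 in line 4 and 10.69 in line 6, had a median of 11.41 and reached 12.11 in line 3 (mean 11.23 ± 0.66, SD, n = 9, or 187.4 ± 77.8 ppm). A gap of 0.46 set lines 1, 4 and 6 below the other 6 lines. An SD smaller than that of ITGAL was found in 98.6% of the 1000 rows nearest in level.

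ITGB2 (ENSG00000160255) was at 11.80 in line 4, 12.05 at the median and 12.72 in line 6 (mean 12.14 ± 0.29, SD, n = 9, or 329.2 ± 71.0 ppm). No relation between the chains was detected. For ITGAL and ITGB2 r was -0.017 (exact permutation p = 0.965) and rho was -0.033 (exact permutation p = 0.948). Leaving out lines 1 and 4, the farthest from the ITGAL median, gave r = -0.55 (exact permutation p = 0.207, n = 7), while leaving out lines 1 and 6 gave r = 0.47 (exact permutation p = 0.288, n = 7). A relation in either direction could therefore not be established from 9 lines. The difference ITGAL minus ITGB2 was most negative in line 6, at -2.03 log2 units, and line 1, at -1.93, and least so in line 9, at -0.13 (mean -0.91 ± 0.72, SD, n = 9), a 3.72-fold change in the ratio of the subunit transcripts.

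**Figure D3:**
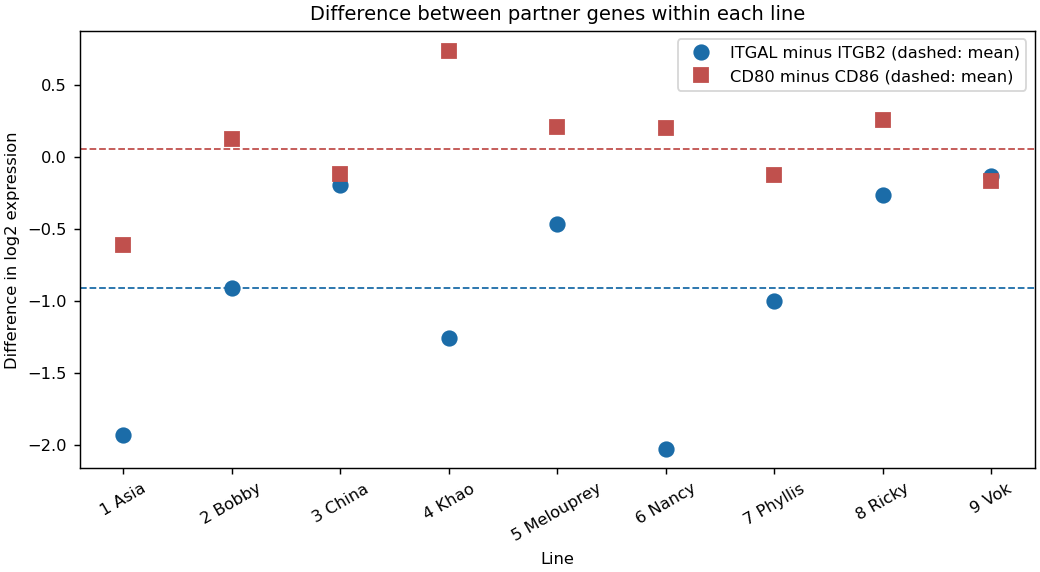
Difference in log2 expression between partner genes within each line, as ITGAL minus ITGB2 (circles) and CD80 minus CD86 (squares), with the mean of each over the 9 lines as a dashed line. Lines 1 and 6 have the lowest ITGAL minus ITGB2 (-1.93 and -2.03); the height of a series also depends on transcript lengths, so only its spread over the lines can be read.

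CD58 (ENSG00000116815) is the adhesion ligand of CD2. Line 5 had its lowest level, 10.18 log2 units, the median was 10.68, and line 1 (10.99) and line 3 (10.96) were highest (mean 10.62 ± 0.28, SD, n = 9, or 114.6 ± 21.9 ppm). The values were graded, with no line apart from the rest. CD44 (ENSG00000026508), the receptor for the matrix polysaccharide hyaluronan, was at 12.35 in line 4, 12.63 at the median and 13.15 in line 8 (mean 12.68 ± 0.26, SD, n = 9, or 477.5 ± 86.9 ppm). Line 8, which was at most 0.32 log2 units from the median for the other genes, was highest for CD44 alone.

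Across the lines, CD86, CD83, ICAM3, CD58 and, less closely, CD80 were high and low together, while ICAM1, ITGAL, ITGB2 and CD44 had lower correlations with them. These 5 genes were picked out after their values were seen, so the following correlations are a description. The 10 pairs among them had r between 0.59 and 0.94 and rho between 0.70 and 0.97, whereas the other 26 pairs had r between -0.47 and 0.54. CD58 and ICAM3 had the highest r, 0.94 (rho = 0.97, n = 9), and CD83 and CD86 followed with 0.93 (rho = 0.87, n = 9). Within a line, CD58 minus ICAM3 varied with an SD of only 0.097 log2 units, against 0.28 and 0.25 for the genes themselves. CD83 minus CD86 varied with an SD of 0.21, against 0.56 and 0.53. Without lines 1 and 6, the high ends of CD86 and CD83, r was 0.91 for CD58 and ICAM3 and 0.85 for CD83 and CD86 (n = 7). ICAM1 had no r above 0.23 with any of the other 8 genes.

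**Figure D4:**
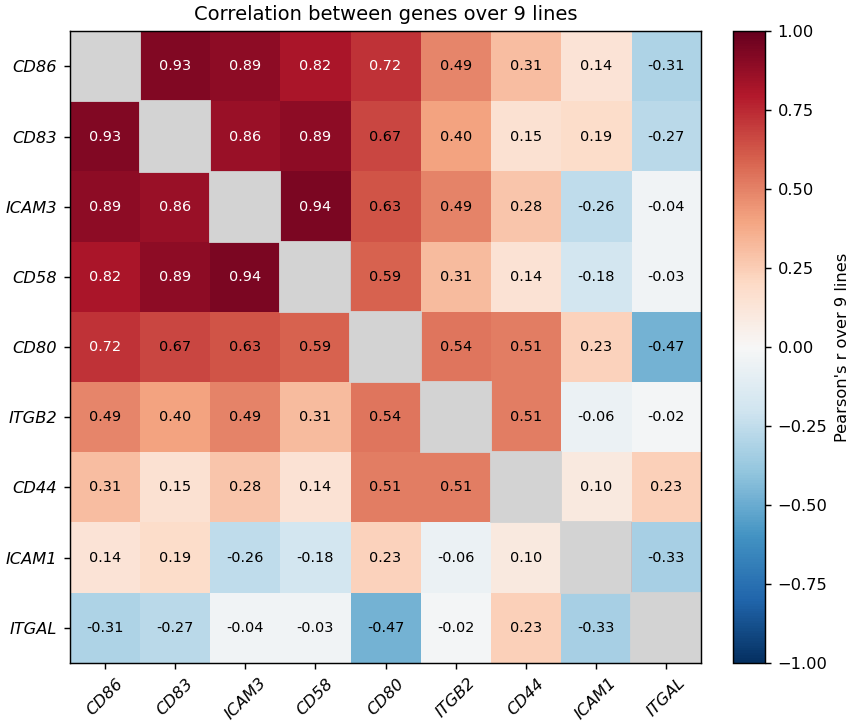
Pearson's r over the 9 lines for each of the 36 pairs of genes, from -1 (blue) to 1 (red), with genes ordered so that those with high mutual r stand together. The block of CD86, CD83, ICAM3, CD58 and CD80 holds r from 0.59 to 0.94, and ITGAL has values from -0.47 to 0.23.

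Every other row was regressed on each gene in turn with limma, with Benjamini-Hochberg adjustment over all 12589 rows. Each slope was tested against 0, which does not test whether a relation was closer than those of other rows. On CD86, CD83 rose by 0.98 ± 0.14 log2 units (SE) for each log2 unit (limma adjusted p = 0.034), and CD83 ranked 13 among all rows by r. In the same ranking on CD86, ICAM3 ranked 45, CD58 233 and CD80 775. In the reverse fit CD86 had a slope of 0.88 ± 0.13 on CD83 (limma adjusted p = 0.099). On ICAM3, CD58 rose by 1.05 ± 0.18 (limma adjusted p = 0.047) and CD86 by 1.90 ± 0.33 (limma adjusted p = 0.049). These calls lay near the threshold. With 1 line left out at a time, CD83 on CD86 kept a slope between 0.86 and 1.07 but passed in 3 of 9 omissions (limma adjusted p between 0.021 and 0.253, highest without line 1). CD58 on ICAM3 passed in 2 of 9 (limma adjusted p between 0.044 and 0.189) and CD86 on ICAM3 in 1 of 9 (limma adjusted p between 0.0072 and 0.192). The reverse fits on all 9 lines gave limma adjusted p = 0.071 for ICAM3 on CD58 and 0.094 for ICAM3 on CD86. A pair was called only when both fits passed 0.05, and 0 of the 36 pairs were called; without line 9 this became 2 pairs, CD83 with CD86 and CD58 with ICAM3. At an unadjusted limma p under 0.05 in both fits 9 of 36 pairs were listed, all with positive slopes and all among the 5 genes above.

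The background to these counts differed by gene. With adjusted p, 1 of the 8 other genes was called on CD86, against 0.175% of all rows, and 2 of 8 were called on ICAM3, against 0.405%. On CD58 0 of 8 were called, against 0.0477%, and the fits on CD80, CD83, ICAM1, ITGAL, ITGB2 and CD44 called 0 of 8 and 0% of rows. At an unadjusted limma p under 0.05 the 8 other genes gave 4 on CD86 (15.3% of all rows), 4 on CD83 (14.4%), 4 on ICAM3 (17%), 3 on CD58 (17.1%) and 3 on CD80 (13.9%). They gave 0 on ICAM1 (4.65%), ITGAL (9.77%), ITGB2 (4.43%) and CD44 (2.06%). The adjusted counts moved with single lines: with 1 line left out, rows called on CD86 (22 as reported) numbered between 1 (without line 1) and 87 (without line 4), those on CD58 (6 as reported) between 0 and 87 (without line 9), those on CD83 (0 as reported) between 0 and 28 (without line 9), and those on CD80 (0 as reported) between 0 and 35 (without line 8). High shares of rows outside the list were thus listed with CD86, CD83, ICAM3, CD58 and CD80 too. Over all 9 lines ICAM3 had the most called rows, 51, with 28 positive and 23 negative, but leaving out any 1 line moved that count by over 1.5 times, from 0 without line 1, 2 or 7 to 107 without line 4. The order turned as well: CD58 had 87 against 23 for ICAM3 without line 9, CD86 had 38 against 21 without line 3, and CD80 had 35 against 13 without line 8. The rows nearest to ICAM3 by r over all 9 lines were ENSG00000236591 (r = 0.96, limma adjusted p = 0.021) and ENSG00000140694 (r = 0.96, limma adjusted p = 0.296). The most opposed rows were ENSG00000072518 (r = -0.97, limma adjusted p = 0.055) and ENSG00000167291 (r = -0.97, limma adjusted p = 0.021), and the table pairs none of these 4 identifiers with a gene name.

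The same genes had the highest r of the 9 genes with the main axis on which the lines differed. The first principal component of the rows that passed the filter, with the 9 genes left out, held 34.2% of the variance, and line 1 (47.9), line 6 (20.1) and line 3 (18.8) were on its positive side, with the other 6 lines between -20.9 and -9.93. As a description over 9 lines, r with that component was 0.87 for ICAM3, 0.86 for CD86, 0.84 for CD58, 0.81 for CD83 and 0.66 for CD80. It was 0.37 for ITGB2, -0.029 for CD44, -0.18 for ICAM1 and -0.45 for ITGAL. The share of all rows with an r as high was not calculated, so these values do not set the genes apart from other rows. Line 1 lay far from the other lines on the component, and how much r rested on it was not tested. In a limma fit that also held the component, chosen after the data were seen, the slopes moved by different amounts. Slopes on CD80 fell among the same genes. CD86 moved from 1.12 to 0.43 ± 0.35 (SE), and CD83 from 1.09 to 0.39 ± 0.43. ICAM3 moved from 0.46 to 0.072 ± 0.20, and CD58 from 0.48 to 0.057 ± 0.23. On CD86, CD58 moved from 0.43 to 0.20 ± 0.21 (SE). In the reverse fits, CD80 on CD86 moved only from 0.46 to 0.38 ± 0.31 (SE), and CD80 on CD83 from 0.41 to 0.23 ± 0.27. CD80 on ICAM3 moved from 0.86 to 0.31 ± 0.73, and CD80 on CD58 from 0.72 to 0.16 ± 0.60. The slopes of CD83 and CD86 on each other, CD58 on ICAM3 and CD86 on ICAM3 fell by smaller shares than those on CD80. So did CD83 on CD58, from 1.79 to 1.46 ± 0.58 (SE). For CD80 with CD86 the fall thus depended on which gene was the predictor, so the fits do not set this pair apart. CD83 had a slope of 0.94 ± 0.28 on CD86 (SE; unadjusted p = 0.0087, limma adjusted p = 0.982). CD58 had a slope of 0.96 ± 0.37 on ICAM3 (SE; unadjusted p = 0.030, limma adjusted p = 0.9998). In the reverse fit CD86 on CD83 moved from 0.88 to 0.65 ± 0.20 (SE; unadjusted p = 0.011, limma adjusted p = 0.919). CD86 on ICAM3 moved from 1.90 to 1.30 ± 0.66 (SE; unadjusted p = 0.079). The smallest p among the 72 fits between the genes was for ITGAL on ICAM3, which moved from -0.093 to 3.75 ± 0.97 (SE; unadjusted p = 0.0040, limma adjusted p = 0.831). ITGAL on CD58 moved from -0.078 to 2.70 ± 0.93 (SE; unadjusted p = 0.018, limma adjusted p = 0.904). ICAM3 and CD58 were themselves close to the component (r = 0.87 and 0.84), so with 9 lines these slopes do not establish a relation with ITGAL. No row was called in any of the 9 limma fits that held the component, in which 416 to 1156 rows had an unadjusted p under 0.05.

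**Figure D5:**
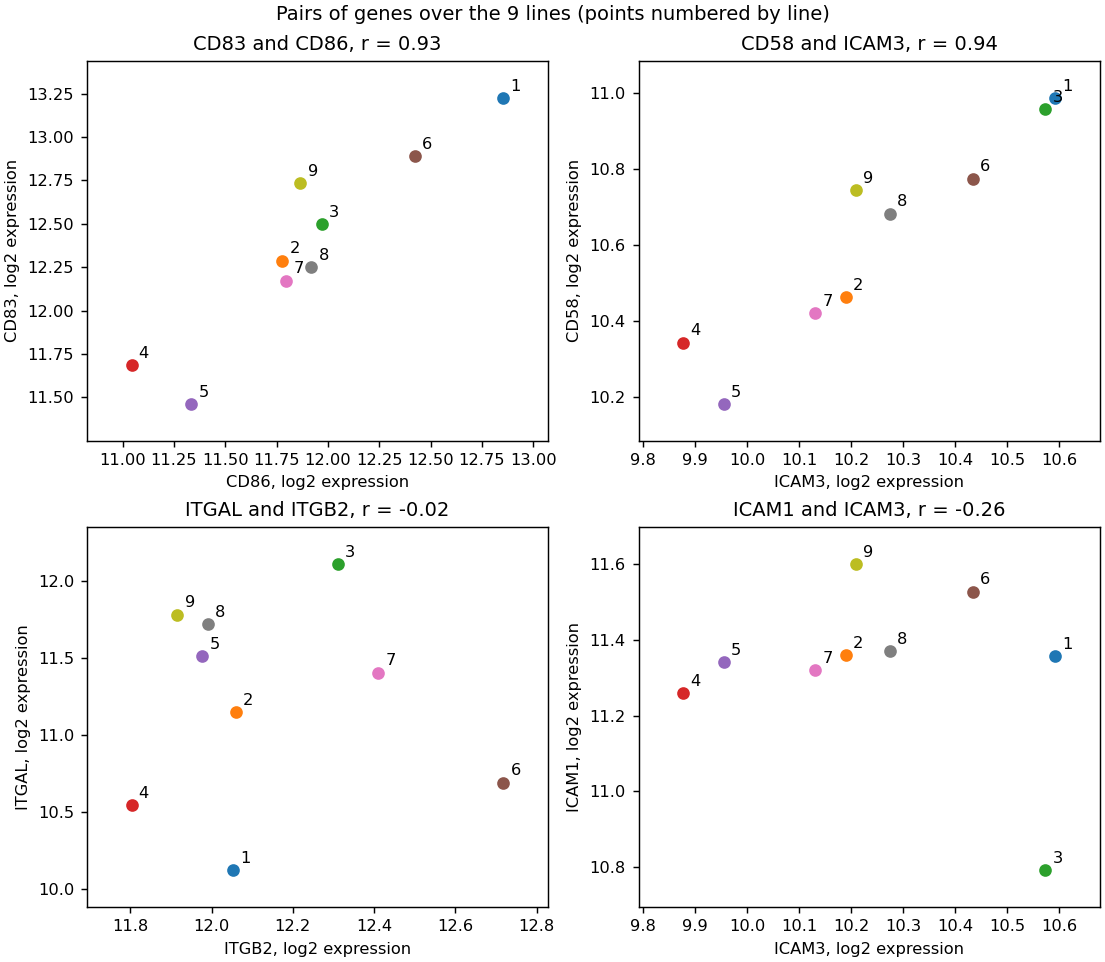
Deposited log2 expression of pairs of genes, 1 numbered point for each of the 9 lines: CD83 against CD86, CD58 against ICAM3, ITGAL against ITGB2 and ICAM1 against ICAM3. The points of the upper pairs lie along a line (r = 0.93 and 0.94), and those of the lower pairs do not (r = -0.017 and -0.26), with line 3 low for ICAM1.

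Exact permutation tests (two-sided, over all pairings of the 9 lines) were run one by one on 7 pairs with a known relation. Of these, CD80 with CD86 and CD80 with CD83 had the highest r. The exact p-values were not adjusted for the number of pairs, or for testing both r and rho. CD80 and CD86 gave r = 0.72 (exact permutation p = 0.030) and rho = 0.72 (exact permutation p = 0.037). Over all rows the same relation had a limma adjusted p of 0.200 for CD80 on CD86 and 0.277 for CD86 on CD80. Without lines 1 and 6, which were also the farthest from the CD80 median, r fell to 0.44 (exact permutation p = 0.329, n = 7). Those were the highest lines for both genes, and leaving them out narrows the range, which by itself lowers r. The omission therefore cannot show whether the relation rested on them. With only line 1 left out r was 0.72 (exact permutation p = 0.053), and with only line 6 left out it was 0.71 (exact permutation p = 0.042). CD80 and CD83 gave r = 0.67 (exact permutation p = 0.051) and rho = 0.72 (exact permutation p = 0.037), with r = 0.37 without the same lines (exact permutation p = 0.423, n = 7).

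ICAM1 was not seen to vary with the activation markers or with its receptor. CD83 and ICAM1 gave r = 0.19 (exact permutation p = 0.635; rho = 0.47, exact permutation p = 0.213), and without lines 1 and 5 r was 0.28. Without line 3, the low line for ICAM1, r was 0.58 (exact permutation p = 0.135, n = 8), so the size of r rested on that line. ICAM1 and ITGAL, ligand and receptor chain, gave r = -0.33 (exact permutation p = 0.408; rho = 0.017, exact permutation p = 0.982), and r was -0.076 without lines 3 and 9 and 0.29 without line 3 alone. CD44 and ICAM1 gave r = 0.10 (exact permutation p = 0.800; rho = 0.25, exact permutation p = 0.521), and without lines 6 and 8 r was -0.19. None of these tests shows that the genes vary independently, since 9 lines leave weak relations undetected.

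Read by line, the 9 genes gave different profiles. Line 6 (Nancy) was above the median for 8 of 9 genes and below it for ITGAL, at -0.72, and was the highest line for CD80 and ITGB2. Line 1 (Asia) was highest for CD86, CD83, ICAM3 and CD58 and lowest for ITGAL, which stood 2.44-fold below its median there. Line 3 (China) combined the highest ITGAL, 1.63-fold above its median, with the lowest ICAM1, 1.48-fold below. Line 4 (Khao) was below the median for 9 of 9 genes and lowest for CD86, ICAM3, ITGB2 and CD44. The shares of all rows below their medians in line 4, or above them in line 6, were not calculated. These counts may therefore not be particular to the 9 genes, several of which were high and low together. Line 5 (Melouprey) was lowest for CD80, CD83 and CD58, and only ITGAL, at 0.11, was above its median. Line 2 (Bobby) stayed closest to the medians, with a mean absolute deviation of 0.083 log2 units against 0.49 in line 1.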

How the data were processed

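RNA-seq was done on total RNA of 9 lymphoblastoid lines with an Illumina TruSeq library protocol, per the labels' protocols. Trimmomatic, STAR, DESeq2 and edgeR are named, without version or role, per the submitters' processing notes. For build, annotation, strand and normalization, the method is not given in the sources used here. The values deposited by the authors are normalized and were treated as log2 expression; they lie between 0.71 and 18.66, and if the unstated logarithm base is not 2, the folds and ppm change. Raised to base 2, the columns sum to between 13728358 and 14059842, so depth is unknown and no counting interval can be given. The header puts a space in place of a tab between Ricky.NLE and Vok.NLE. Read at every blank it gives 1 name per column, and each column's name was checked to equal the start of its sample's title, with 0 columns left unused. Unlike a count model, limma fits the deposited log2 values directly, with no pseudocount.

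The members, gene lists and tests were chosen with earlier results of these data known. Symbols come from the rule that lists the 10 identifiers; the gibbon RefSeq table (Asia_NLE_v1) lists all 10 symbols but 0 Ensembl identifiers, so the planned lists of partner genes and cell type markers could not be matched. The text names all 10 genes and, for the gene with the most called rows, the 2 rows of highest and 2 of lowest r. A row was kept if its mean reached 1 ppm. Each row was regressed on each gene with limma 3.58.1 in R 4.3.3 (mean trend, robust prior, Benjamini-Hochberg adjustment over all kept rows, threshold 0.05). Exact permutation tests used all 362880 pairings (Python 3.11.15). Dixon's critical value for 9 values was 0.493. The fits were tested on simulated data. Alternatives were other scalings, filters, a pseudocount, another prior and leaving out lines. At most 23 rows were equal within 0.0001 in any pair of lines.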

Additional observations from a re-analysis of the deposited data

Results flagged for a closer look

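ICAM1 in line 3 lay far below the other lines, at 10.79 log2 units, with the next lowest line 0.47 above it and the other 8 lines within 0.34 of each other. Of the 9 genes checked for a single outlying line it was the only one, and chance flags about 1 in 20 groups. Over all rows that passed the filter the share with an outlying line was 10.1%, so 1 of 9 genes is near the background. In the same line ITGAL was at its highest (12.11) and ICAM3 second highest (10.57).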

How the results depend on the processing

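Quantile normalization, median centring, no filter, a filter of 5 ppm and a pseudocount of 1 left every range and every correlation on its side of the threshold, except that CD80 and CD83 passed it with quantile normalization (r = 0.67, exact permutation p = 0.049). Counts of called rows, summed over the 9 genes, were the least stable: 79 as reported, 122 with quantile normalization, 39 with median centring, 42 with no filter and 0 with the first principal component as a covariate. Without line 1 the sum was 1, without line 2 it was 14, without line 4 196, without line 5 26, without line 6 30, without line 7 11 and without line 9 153 (range 1 to 196). The cause was not tested. The calls of CD58 and CD86 on ICAM3 were also lost with median centring, no filter and another prior. Pairs called ranged from 0 to 2 when a line was left out, and were 0 under all other settings. Leaving out lines 1 and 6 together, chosen after seeing the data, gave 3 called rows, 2 genes spanning at least 2-fold, ranges of 0.64 for CD80, 0.93 for CD86 and 0.61 for ITGB2, r = 0.44 for CD80 and CD86, and r = 0.47 for ITGAL and ITGB2. Fewer lines narrow a range by construction. With 1 line left out, r lay between 0.66 and 0.77 for CD80 and CD86 (exact permutation p = 0.053 without line 1 and 0.083 without line 5), between 0.56 and 0.79 for CD80 and CD83, between -0.23 and 0.35 for ITGAL and ITGB2, between 0.074 and 0.58 for CD83 and ICAM1, between -0.39 and 0.42 for ICAM1 and ICAM3, between -0.57 and 0.29 for ICAM1 and ITGAL, and between -0.019 and 0.31 for CD44 and ICAM1. For CD58 and ICAM3 it lay between 0.92 and 0.96, and for CD83 and CD86 between 0.89 and 0.96. The limma adjusted p of CD83 on CD86 lay between 0.021 and 0.253 with 1 line left out. Ranges were 0.70 to 1.08 for CD80 (0.70 without line 6), 0.34 to 0.81 for ICAM1 (0.34 without line 3) and 0.61 to 0.91 for ITGB2 (0.61 without line 6), and the number of genes with an outlying line was 0 to 1. No paired analysis was possible because all lines belong to 1 group. CD48 and CD58 could not be tested as a pair, since CD48 has no row.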
